A study of Mus musculus with 6 samples.

Results

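Shisa8, Pou3f1, Tmem200b, Vgf and Pim1 are 5 genes whose level in each of 3 Arhgef15 knockout libraries of cultured mouse Sertoli cells lay above each of 3 wild-type libraries. They were chosen from these same values, out of 29275 measured genes. Of 12284 genes that passed a filter on low values, 772 (6.28%) showed this separation, so the 5 are a selection from a larger set. Of those 772, 496 had a group mean of at least 5 FPKM (fragments scaled by gene length and library size) and were neither predicted genes nor pseudogenes, and the 5 were the ones among them with the smallest p in a test of genotype. Their difference between genotypes is therefore described here and not tested.

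The study measured RNA from primary Sertoli cells, the somatic cells that nurse germ cells in the seminiferous tubule. The wild-type group held 3 untreated cultures, and the other group held 3 cultures from mice with a conditional deletion of Arhgef15 in Sertoli cells (Arhgef15 cKO, below cKO). Arhgef15 encodes a guanine nucleotide exchange factor. All cultures were kept at 34 °C in medium with 10% serum and 0.25 µg/ml EGF. The sources used here do not give the driver of the deletion, the deleted exons or the age of the mice. The replicates are labelled biological, but nothing says that they came from separate animals, so a p-value measures only the spread between these libraries. Values are listed in the order of replicates 1, 2 and 3 throughout.

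Libraries held 16790000 to 20320000 fragments. Arhgef15 itself was listed at 0.123, 0.0237 and 0.349 FPKM across the wild-type set and at 0.501, 0.322 and 0.338 FPKM across the cKO set. These values rested on 15, 3 and 46 wild-type fragments against 63, 35 and 44 cKO fragments. Over the whole gene, the libraries labelled cKO thus did not have less of its transcript (limma over 29275 genes, log2 difference 0.26, SE 0.13, adjusted p = 0.903). By exact permutation, two-sided, p was 0.3, and the smallest that 3 against 3 allows is 0.1. A value for the whole gene cannot show whether single exons were lost. Wild-type replicate 3 stood apart. Its correlation across tested genes was 0.860 and 0.898 with the other wild-type libraries, but 0.921 to 0.947 with the cKO libraries, and values without it are given beside each of the 5 genes.

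The 5 genes have unrelated textbook roles. Pou3f1, also called Oct-6 or SCIP, is a POU domain transcription factor known from Schwann cells before myelination and from spermatogonia, where it responds to GDNF, a growth factor that Sertoli cells secrete. Vgf encodes a granin-like precursor that neurons and endocrine cells store in dense-core vesicles and cut into peptides, and it was named for its induction by nerve growth factor. Shisa8 belongs to a family of single-pass membrane proteins, several of which bind AMPA-type glutamate receptors, and Tmem200b encodes a little-studied membrane protein. Pim1 is a serine/threonine kinase that is active as soon as it is made, so its activity follows its transcript and protein level, and cytokine signals through JAK and STAT proteins induce it.

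Pou3f1 (ENSMUSG00000090125), the transcription factor, was the lowest of the 5 in wild-type cells. It was listed at 0.277, 0.266 and 1.71 FPKM across the wild-type set. Across the cKO set it was listed at 5.00, 8.31 and 7.31 FPKM. Wild-type replicate 3 was thus several times higher than the other wild-type libraries and still below every cKO library, the lowest of which was 2.92-fold above it. The means were 0.752 ± 0.832 FPKM in the wild-type set and 6.87 ± 1.70 FPKM across the cKO set (SD, n = 3 each), a ratio of 9.14, and the ratio was 25.3 without wild-type replicate 3. The wild-type values rested on 20, 20 and 134 fragments, with exact Poisson 95% intervals of 12.2 to 30.9 for each of the first 2 and 112.3 to 158.7 for the third, against 373, 537 and 565 fragments in cKO libraries. These intervals cover counting error only. In such bulk RNA, a change in the number of cells that make a transcript and a change in the amount per cell cannot be told apart.

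Vgf (ENSMUSG00000037428), the secreted precursor, was listed at 2.83, 1.90 and 7.70 FPKM across the wild-type set. The cKO libraries had 19.2, 22.4 and 19.2 FPKM, the tightest cKO group of the 5 genes, with the highest only 1.17 times the lowest. The wild-type group was much wider, with the highest value 4.06 times the lowest. Group means were 4.14 ± 3.11 and 20.3 ± 1.86 FPKM (SD, n = 3 each), a ratio of 4.89, or 8.57 without wild-type replicate 3. Fragments numbered 110 to 465 in wild-type and 1104 to 1149 in cKO libraries.

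Shisa8 (ENSMUSG00000096883) was listed at 1.21, 0.868 and 2.62 FPKM across the wild-type set and at 9.79, 13.9 and 21.9 FPKM across the cKO set. Its gap was the widest of the 5, since the lowest cKO library was 3.73 times the highest wild-type library. The means were 1.57 ± 0.931 and 15.2 ± 6.14 FPKM (SD, n = 3 each), a ratio of 9.69, or 14.6 without wild-type replicate 3. The cKO libraries differed among themselves by more than counting error, with 527, 647 and 1220 fragments (exact Poisson 95% intervals 483.0 to 574.0, 598.1 to 698.8 and 1152.5 to 1290.4).

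Tmem200b (ENSMUSG00000070720), the other membrane protein gene, was listed at 2.49, 3.20 and 5.20 FPKM across the wild-type set. In the cKO libraries it was at 12.0, 12.0 and 18.4 FPKM, so that cKO replicates 1 and 2 were equal to 3 digits and replicate 3 was higher. Means were 3.63 ± 1.41 and 14.1 ± 3.70 FPKM (SD, n = 3 each), with a ratio of 3.89, or 4.96 without wild-type replicate 3. They rested on 69, 92 and 156 wild-type fragments against 342, 297 and 545 cKO fragments. These counts were whole at a gene length of 1476 bases, not at the 1370 bases of the annotation used here, so the submitters' gene model differed.

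Pim1 (ENSMUSG00000024014), the kinase, was the most abundant of the 5 and had the smallest ratio. It was listed at 18.0, 21.4 and 27.0 FPKM across the wild-type set and at 51.6, 45.1 and 57.8 FPKM across the cKO set. The groups were each narrow, with the highest library 1.50 times the lowest in wild-type and 1.28 times in cKO cells. The means were 22.1 ± 4.54 and 51.5 ± 6.37 FPKM (SD, n = 3 each), a ratio of 2.33, or 2.61 without wild-type replicate 3. With 1135 to 3906 fragments per library it was the best measured of the 5. Pim1 and Pou3f1 overlap exons of the opposite-strand genes Gm26885 and Gm2164, and the sources used here do not give the strand setting. Those genes were listed at no more than 0.252 and 0.464 FPKM in any library.

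**Figure D1:**
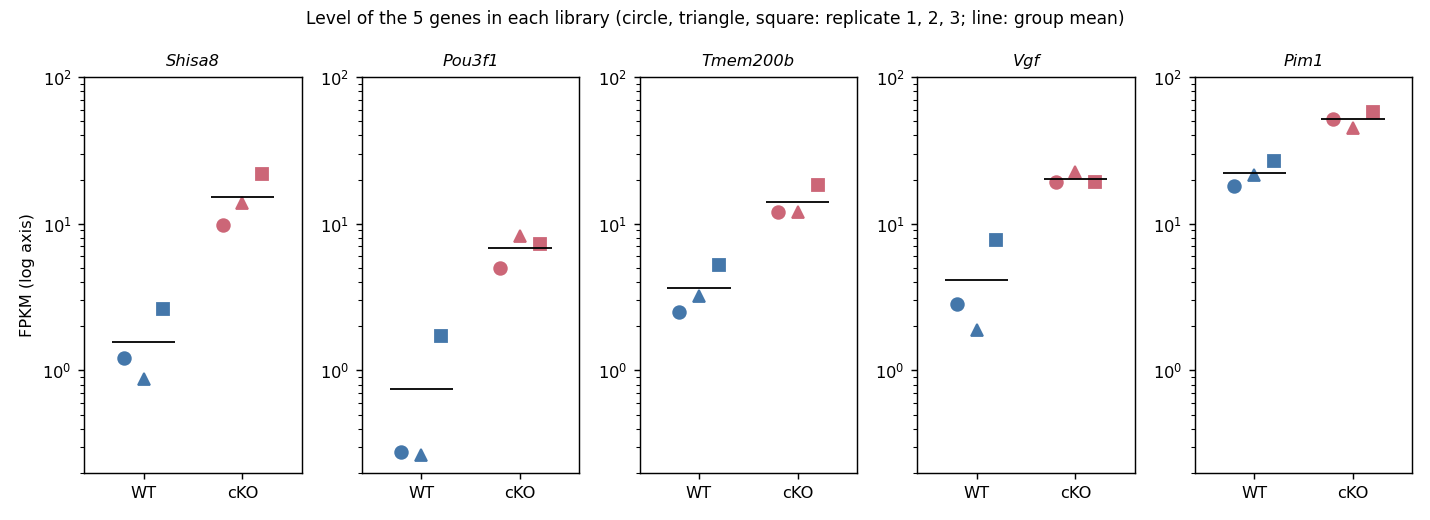
FPKM on a log axis for the 5 genes in each library, with wild-type (WT) libraries in blue, cKO libraries in red, replicate 1, 2 and 3 as circle, triangle and square, and the group mean as a line. All 3 red points lie above all 3 blue points in each panel, as the choice of genes requires, and the blue square (wild-type replicate 3) is the highest blue point in all 5.

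By level per length, Pim1 was highest in both genotypes. In wild-type libraries Vgf at 4.14 ± 3.11 FPKM and Tmem200b at 3.63 ± 1.41 FPKM did not differ beyond their spread, and Shisa8 and Pou3f1 came last. In cKO libraries Vgf at 20.3 ± 1.86 FPKM, Shisa8 at 15.2 ± 6.14 FPKM and Tmem200b at 14.1 ± 3.70 FPKM followed Pim1. Shisa8 did not differ from Vgf or Tmem200b beyond its spread, and exceeded Vgf in cKO replicate 3. Pou3f1 was the lowest in both. Just outside the selection, the next 3 genes by the same criteria were Zbed5, Hmgb3 and Cox11. Zbed5, a gene derived from a transposase, had 3.08, 1.93 and 2.21 FPKM in the wild-type set and 6.95, 6.55 and 6.15 FPKM in cKO libraries. Hmgb3, a chromatin protein gene, had 3.13, 2.59 and 2.93 FPKM against 6.17, 7.71 and 7.89 FPKM, and Cox11, which encodes an assembly factor of cytochrome c oxidase, had 1.99, 1.55 and 1.83 FPKM against 4.21, 5.48 and 5.39 FPKM. In these 3 genes wild-type replicate 1, not 3, was the highest wild-type library.

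The 5 genes shared their order in wild-type libraries only in part and did not share it in cKO libraries. Wild-type replicate 3 was the highest wild-type library for all 5. It was so for 49.0% of all 12284 tested genes and for 49.6% of the 772 separated genes. On the log2(FPKM + 1) scale, wild-type replicate 3 lay 28.5% of the way from the mean of the other wild-type libraries to the cKO mean for Shisa8, 32.9% for Pim1, 35.6% for Tmem200b, 42.0% for Pou3f1 and 51.8% for Vgf. For the 304 genes called higher when wild-type replicate 3 was left out, the median position was 105.0%, with quartiles at 83.1% and 127.2%. The choice of genes required a position below the cKO values, so this places the 5 and tests nothing. Among cKO libraries, replicate 3 was highest for Shisa8, Tmem200b and Pim1, and replicate 2 for Pou3f1 and Vgf. Replicate 1 was lowest for Shisa8, Pou3f1, Tmem200b and Vgf, though by little for Tmem200b and Vgf, and replicate 2 was lowest for Pim1.

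Likeness of profiles was measured as the root mean square (RMS) difference between 2 genes' log2(FPKM + 1) values over the 6 libraries, each centred on its own mean. Pou3f1 and Vgf were the closest pair at 0.210, and each was the other's nearest among the tested genes that are neither predicted genes nor pseudogenes. Shisa8 was nearest to Pou3f1 at 0.331 and then to Vgf at 0.436. Tmem200b was 0.303 from Pim1 and 0.381 from Pou3f1. Pim1 stood apart from the steeper genes, at 0.799 from Shisa8, 0.647 from Vgf and 0.620 from Pou3f1. Ranked by nearness to Pim1 among the same tested genes, Tmem200b was at 70, Pou3f1 at 4759, Vgf at 5557 and Shisa8 at 8820. Ranked by nearness to each of these in turn, Pim1 was at 8 for Tmem200b, 49 for Pou3f1, 96 for Vgf and 48 for Shisa8. All 6 points share the genotype contrast that chose the genes, so these distances are a description. They depend on the 1 added to each FPKM, and distances with another number added were not computed. With 0.1 and 5 added, the log2 difference between genotypes was 3.44 and 1.04 for Pou3f1. For Vgf it was 2.51 and 1.52.

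Outside the 5, the 3 nearest profiles to Pou3f1 were Zfp469 at 0.357, Reep2 at 0.417 and Slain1 at 0.436, and those to Vgf were Reep2 at 0.333, Sfn at 0.356 and Zfp469 at 0.380. Reep2, a gene of a protein that shapes the endoplasmic reticulum, was listed at 5.65, 4.02 and 21.5 FPKM in the wild-type set and at 30.2, 29.7 and 45.8 FPKM in cKO libraries, so wild-type replicate 3 lay closer to the lowest cKO library than it did for Pou3f1. For Shisa8 they were Cgn at 0.460, Car11 at 0.529 and Reep2 at 0.536. Cgn, which encodes the tight junction protein cingulin, was listed at 1.12, 1.45 and 5.55 FPKM in the wild-type set and at 6.33, 11.1 and 22.8 FPKM in cKO libraries. Tmem200b had Edn1 at 0.196, Rasl10b at 0.226 and Sema6c at 0.240. Edn1, the endothelin-1 precursor gene, was at 7.28, 9.52 and 17.8 FPKM in the wild-type set and at 27.8, 26.5 and 56.7 FPKM in cKO libraries, with cKO replicate 3 highest as for Tmem200b. Pim1 had Ttyh3 at 0.171, Mapkapk5 at 0.179 and Rpl22l1 at 0.186.

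**Figure D2:**
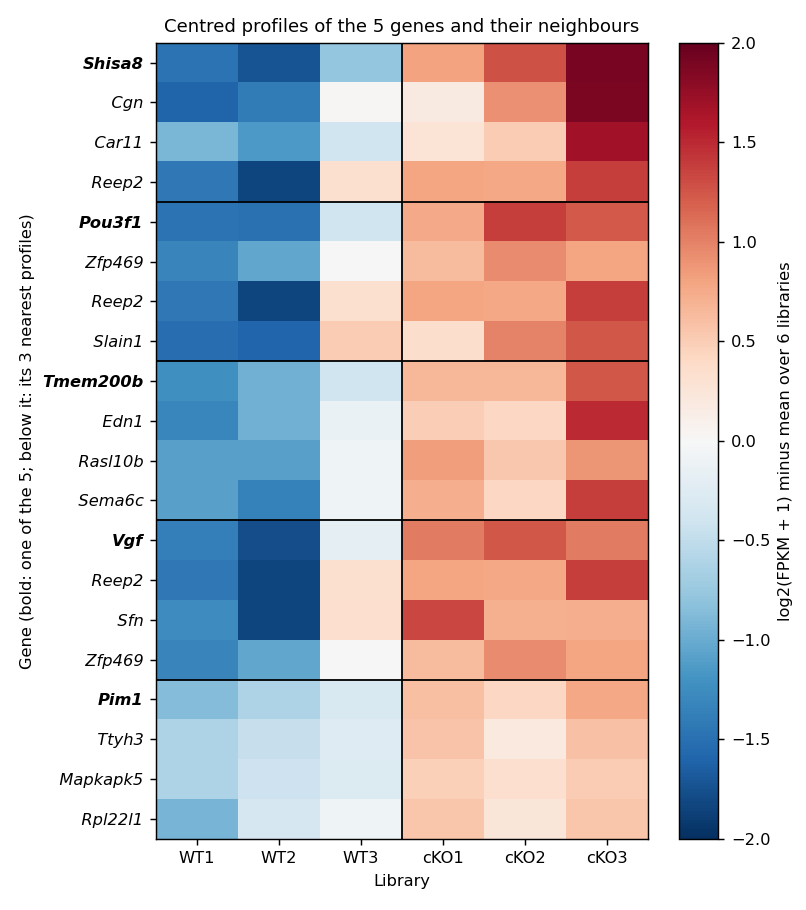
Log2(FPKM + 1) minus the gene's mean over the 6 libraries (colour scale from -2 to 2), with libraries in columns and the 5 genes (bold) above their 3 nearest profiles in rows. Wild-type replicates 1 and 2 are pale to dark blue, and wild-type replicate 3 runs from blue for Shisa8 to red for Slain1, where it exceeds cKO replicate 1. The cKO columns are pale to dark red, with cKO replicate 3 darkest for Shisa8 and its neighbour Cgn.

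A feature that played no part in the choice was base composition. The longest annotated transcripts of Tmem200b, Shisa8, Vgf and Pou3f1 had 67.2%, 65.9%, 64.1% and 63.9% G and C, more than 99.8%, 99.7%, 99.4% and 99.3% of the 12244 tested genes with a sequence. The Pim1 transcript, at 56.0%, was above 82.1% of them. The genes lie on chromosomes 15 (Shisa8), 4 (Pou3f1 and Tmem200b), 5 (Vgf) and 17 (Pim1), and Pou3f1 and Tmem200b are each annotated with a single exon. Among the 524 tested genes with at least 60% G and C, a limit set after seeing the values, 15.5% had all cKO values above all wild-type values, against 6.26% of all genes with a sequence, and the median log2 difference was 0.22 against 0.08. The libraries did not fall into genotypes by this class as a whole. Its median centred log2(FPKM + 1) was 0.24, -0.16 and -0.38 for the wild-type set, against 0.29, -0.01 and 0.03 for the cKO set. Wild-type replicate 3 was thus the lowest library for the GC-rich genes as a class. For the 81 of them with all cKO values above all wild-type values, as the 5 have, the medians were -0.22, -0.47 and -0.30 against 0.50, 0.28 and 0.28, and wild-type replicate 2 was lowest. With a smoothed correction for GC content and length, all 5 genes stayed separated. Its smoothing was wide, so genes of lower GC content also shaped it at the GC-rich end. An effect confined to that end could therefore remain after it. The part of base composition in the differences was not tested further.

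**Figure D3:**
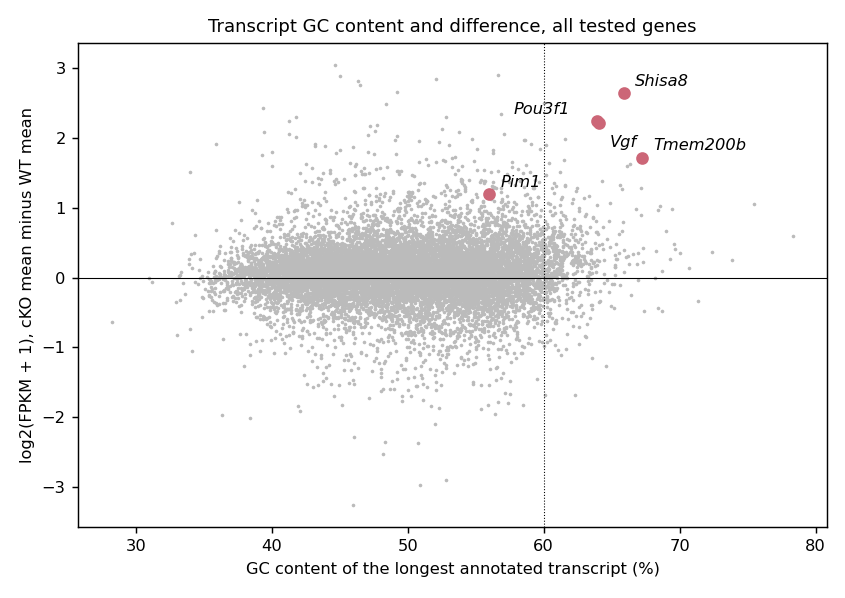
G and C content of the longest annotated transcript (%, x axis) against the difference of mean log2(FPKM + 1), cKO minus wild-type (y axis), for tested genes (grey) and the 5 genes (red), with a dotted line at 60%. Tmem200b, Shisa8, Vgf and Pou3f1 lie at the GC-rich end, between 63.9% and 67.2%, and Pim1 lies at 56.0% within the main cloud.

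Promoter windows in RefSeq (GRCm38.p6, 250 bases before to 50 after a listed start) were matched for Shisa8, Tmem200b and Pim1, and not for Pou3f1 and Vgf. They are shown because the genes were higher in the same libraries and most share the GC-rich composition. The printed stretches are the part of each window upstream of the RefSeq gene model, from 5′ to 3′, at chr15:82212849-82213065 on the minus strand for Shisa8 and at chr17:29490535-29490784 on the plus strand for Pim1. Capitals mark GC boxes, the letters GGGCGG on either strand.
Shisa8: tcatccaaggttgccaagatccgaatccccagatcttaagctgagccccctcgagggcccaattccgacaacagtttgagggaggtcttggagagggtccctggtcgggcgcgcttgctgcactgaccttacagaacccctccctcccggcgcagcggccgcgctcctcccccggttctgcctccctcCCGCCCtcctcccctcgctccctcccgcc
Pim1: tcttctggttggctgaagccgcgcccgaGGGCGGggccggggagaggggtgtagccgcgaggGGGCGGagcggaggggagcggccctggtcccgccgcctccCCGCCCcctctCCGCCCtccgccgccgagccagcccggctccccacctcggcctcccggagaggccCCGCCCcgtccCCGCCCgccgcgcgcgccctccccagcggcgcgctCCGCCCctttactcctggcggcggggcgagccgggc
The Pim1 stretch holds 7 GC boxes and 36 CpG dinucleotides in 250 bases, and that of Shisa8 holds 1 GC box and 15 CpG in 217 bases. The Tmem200b window lies inside its RefSeq gene model and is not printed.

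Over the full windows of 300 bases, G and C made up 81.3% at the first Pim1 start, 79.0% for Tmem200b and 71.3% for Shisa8, against a median of 52.7% over 32851 windows. They held 42, 43 and 32 CpG, where the median was 7. The second Pim1 start had 49.0% G and C, 5 CpG and no GC box. GC boxes, found in 35.7% of all windows, numbered 7, 2 and 4, with a pair overlapping in Shisa8. Shisa8 also had 1 CCAAT box (CCAAT, in 37.4% of windows), and Tmem200b had 1 CRE core (TGACG, in 20.8%). The letters of the TATA box (TATAAA, 13.6%), the GAS element of STAT proteins (TTCNNNGAA, 8.30%) and the AP-1 site (TGANTCA, 7.81%) occurred in none of these 4 windows on either strand. These are matches of letters only.

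The paralogs of the 5 genes and 8 further lists of related genes gave 129 measured genes, of which 70 passed the filter. Of these 70, 0 were called higher and 0 lower (limma, Benjamini-Hochberg adjusted p under 0.05), beside 0.0% higher and 0.0163% lower among all tested genes. At an unadjusted p under 0.05, 6 were higher and 3 lower, where the background was 3.87% higher and 2.94% lower. Without wild-type replicate 3, 4 were called higher (Cpe, Lif, Pcsk1n and Uchl1) and 3 lower (Mycn, Pmp22 and S100b), where the background was 2.47% and 1.42%. The median log2 difference of the 70 was 0.12, against 0.08 over all tested genes.

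Both Pim1 paralogs overlapped between groups, through wild-type replicate 3 alone. Pim3 was listed at 44.2, 35.6 and 54.2 FPKM in the wild-type set and at 71.9, 57.1 and 52.6 FPKM in cKO libraries (limma, log2 difference 0.44, SE 0.23, adjusted p = 0.770, and 0.58 with adjusted p = 0.175 without wild-type replicate 3). Pim2 ranged from 0.935 to 11.4 FPKM in wild-type libraries, the highest of all 6 being wild-type replicate 3, and from 2.69 to 8.53 FPKM in cKO libraries (limma, log2 difference 0.67, adjusted p = 0.894, and 1.52 with adjusted p = 0.0842 without that library). The difference between Pim1 and its paralogs was not tested.

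Of 17 JAK-STAT targets and feedback genes, 10 had log2 differences above 0 and 7 below, Bcl2l1 counting among the first at 0.00, with a median of 0.27, and 0 passed. All 3 cKO values lay above all 3 wild-type values for 4 of them, Bcl3, Socs1, Socs3 and Cish, where 6.28% of all tested genes did so. They lay below in 1, Stat5a, a signal transducer named after its values were seen, with 8.83 ± 1.28 and 7.50 ± 0.143 FPKM (SD, n = 3 each), against 5.01% of all tested genes. Socs3, the feedback inhibitor of gp130 signalling, was listed at 28.7, 41.0 and 33.3 FPKM in the wild-type set and at 51.5, 46.3 and 52.2 FPKM in cKO libraries (limma, adjusted p = 0.663). Socs1, which inhibits JAK kinases, had 4.62, 3.60 and 2.08 FPKM against 6.78, 9.57 and 5.82 FPKM (adjusted p = 0.611). Bcl3, an atypical IkB protein gene, had 26.7, 19.6 and 22.9 FPKM against 37.4, 46.9 and 33.7 FPKM (adjusted p = 0.583). In none of these 3 genes was wild-type replicate 3 the highest wild-type library, unlike Pim1. Cish, another feedback inhibitor, named after its values were seen, had 1.49, 0.887 and 2.17 FPKM against 3.33, 2.37 and 2.57 FPKM (adjusted p = 0.732). In Cish, as in Pim1, wild-type replicate 3 was the highest wild-type library. The cytokine gene Lif overlapped between groups, with 8.85, 9.57 and 68.9 FPKM in the wild-type set and 87.5, 125 and 32.8 FPKM in cKO libraries (adjusted p = 0.730, but 0.0349 without wild-type replicate 3).

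Among 12 genes of PIM kinase substrates and partners, 11 were tested and 0 passed, with a median log2 difference of 0.08. Nfatc1, a calcium-regulated transcription factor, was at 2.34, 2.13 and 3.86 FPKM in the wild-type set and at 5.63, 6.16 and 4.70 FPKM in cKO libraries (limma, adjusted p = 0.608, and 0.0544 without wild-type replicate 3). Rps6, the ribosomal protein that S6 kinases phosphorylate, was at 695, 691 and 671 FPKM against 495, 435 and 410 FPKM (adjusted p = 0.608), so its groups did not overlap in the opposite direction. Foxo3, a forkhead transcription factor, had means of 10.3 ± 6.41 and 14.1 ± 1.98 FPKM (SD, n = 3 each, limma adjusted p = 0.829, and 0.0692 without wild-type replicate 3), and Cdc25a, a cell cycle phosphatase, 4.31 ± 1.08 and 5.59 ± 0.678 FPKM (adjusted p = 0.831).

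Most granins and prohormone-processing genes were too low to test. Of 13 measured, 4 passed the filter and 0 were called. The granin genes Chga, Chgb and Scg2 were listed at no more than 0.542 FPKM in any library, and the prohormone convertases Pcsk1 and Pcsk2 at no more than 0.0373 FPKM. Pcsk1n, which encodes the granin-like inhibitor of the first of these convertases, was at 0.827, 0.725 and 4.44 FPKM in the wild-type set and at 7.95, 5.46 and 5.45 FPKM in cKO libraries (limma, adjusted p = 0.608), with the groups apart and wild-type replicate 3 closest to cKO, as for Vgf. Without that library it was called (log2 difference 2.02, adjusted p = 0.0127). Cpe, the carboxypeptidase that trims prohormone peptides, was highest in wild-type replicate 3 at 461 FPKM, with 139 and 133 FPKM in the other wild-type and 306 to 398 FPKM in cKO libraries (adjusted p = 0.816, but 0.0219 without wild-type replicate 3). Pam, which amidates peptides, had means of 12.3 ± 5.85 and 15.7 ± 1.55 FPKM (SD, n = 3 each), with a log2 difference of 0.42, or 0.75 without wild-type replicate 3 (limma, adjusted p = 0.847 and 0.108). C3ar1, a receptor for complement C3a and a VGF peptide, was lower in every cKO library, at 24.5, 27.8 and 11.6 FPKM against 9.07, 2.60 and 8.77 FPKM (adjusted p = 0.608). Macrophages express it, and 12 of 13 tested macrophage markers had log2 differences below 0. Their part in its difference was not tested.

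**Figure D4:**
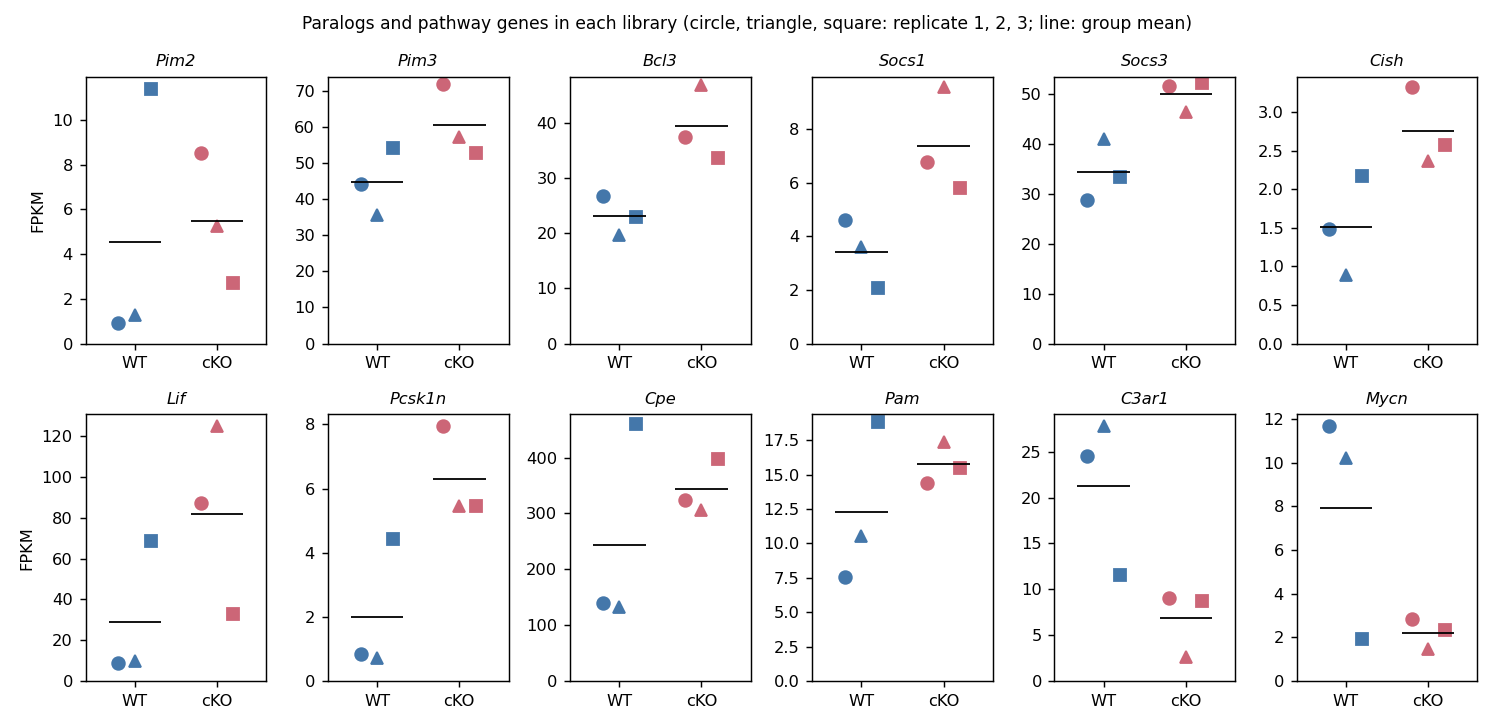
FPKM (linear axes from 0) of 12 paralogs and pathway genes in each library, drawn as in the plot of the 5 genes. Bcl3, Socs1, Socs3, Cish and Pcsk1n have all cKO points above all wild-type points and C3ar1 has them below, while in Pim2, Cpe and Pam the blue square (wild-type replicate 3) is the highest of all.

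Genes of the growth factor and CREB response, which is known to induce Vgf, had a median log2 difference of 0.17 over 15 tested members, 9 higher and 6 lower, and 0 passed. Crtc2, a CREB coactivator, had 8.19 ± 1.11 FPKM in the wild-type set and 11.6 ± 1.90 FPKM across the cKO set (SD, n = 3 each, limma adjusted p = 0.755). Fos, the AP-1 subunit, had 15.0 ± 5.88 and 8.98 ± 2.85 FPKM (adjusted p = 0.768), and Sik1, a CREB target, 15.9 ± 5.57 and 23.7 ± 6.43 FPKM (adjusted p = 0.778).

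Among the Shisa family, Shisa5 and Shisa4 passed the filter and were not called. Shisa5, linked to the endoplasmic reticulum and cell death, was at 136, 98.9 and 67.3 FPKM in the wild-type set and at 85.6, 74.7 and 81.9 FPKM in cKO libraries (limma, adjusted p = 0.892). Shisa4 had 8.17 ± 3.73 and 8.73 ± 1.20 FPKM (SD, n = 3 each, adjusted p = 0.940). Shisa6, another AMPA receptor partner, was below the filter, at 0.265, 0.750 and 0.713 FPKM in the wild-type set and 0.783, 1.54 and 2.44 FPKM in cKO libraries, so its groups were apart by little. Shisa9 was listed at no more than 0.0380 FPKM. Of the AMPA receptor subunits and auxiliary proteins, 10 were measured, 5 tested and 0 called. Their median log2 difference was -0.09, and the subunit gene Gria3 had 2.54 ± 1.33 and 1.12 ± 0.405 FPKM (adjusted p = 0.747). Tmem200a had 0.747 ± 0.248 and 0.863 ± 0.0589 FPKM, and Tmem200c was listed at no more than 0.101 FPKM.

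The other measured POU genes of the class of Pou3f1, Pou3f3 and Pou3f4, were listed at no more than 0.0672 FPKM in any library. Pou6f1 was the POU paralog that passed the filter, with 1.65 ± 1.02 and 1.90 ± 1.16 FPKM (SD, n = 3 each, limma adjusted p = 0.960). Of 8 tested spermatogonial genes that respond to GDNF, 3 were higher and 5 lower, with a median log2 difference of -0.07, and 0 passed. Etv5, a transcription factor of spermatogonial stem cells and of Sertoli cells, had 14.2 ± 0.829 and 10.5 ± 2.03 FPKM (adjusted p = 0.755). Mycn, the N-myc gene, was at 11.7, 10.2 and 1.90 FPKM in the wild-type set and at 2.82, 1.46 and 2.33 FPKM in cKO libraries (adjusted p = 0.736, but 0.0160 without wild-type replicate 3). The GDNF receptor gene Gfra1 was listed at no more than 0.659 FPKM.

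Germ cell transcripts also differed between the libraries. The mean log2(FPKM + 1) of 12 spermatogonia and spermatocyte markers was 0.66, 0.85 and 2.91 for wild-type cultures against 2.57, 1.05 and 1.34 for cKO cultures. Wild-type replicate 3 was thus the highest wild-type library, as for Pou3f1 and for 49.0% of all tested genes. For the mean of the markers it was also above every cKO library, which it was not for Pou3f1. Singly, each marker had this order except Gfra1 and Zbtb16, both below the filter on low values. Gfra1 was at 0.127, 0.131 and 0.602 FPKM in the wild-type set and at 0.659, 0.272 and 0.327 FPKM in cKO libraries. Zbtb16 was at 0.283, 0.194 and 0.428 FPKM against 0.488, 0.237 and 0.462 FPKM. Among cKO libraries, replicate 1 was highest for the marker mean and lowest for Pou3f1. Dazl, an RNA-binding protein gene of germ cells, was at 0.391, 0.966 and 27.4 FPKM across the wild-type set and at 17.2, 0.920 and 2.92 FPKM across the cKO set. Kit, a receptor gene of differentiating spermatogonia, was at 0.186, 0.265 and 3.04 FPKM against 2.50, 2.54 and 1.04 FPKM. The sum of the 12 was 30.4 to 267 FPKM in the wild-type set and 100 to 197 FPKM in cKO libraries, much of it from Uchl1. Without Uchl1, left out after its values were seen, it was 1.97, 5.44 and 93.2 FPKM against 59.5, 6.12 and 10.1 FPKM. The part of germ cells in the Pou3f1 difference was not tested. Schwann and glial markers were lower in cKO libraries for 5 of 5 tested genes, with a median log2 difference of -0.37 and 0 passing. Their sum was 61.6 to 190 FPKM in the wild-type set and 52.1 to 76.8 FPKM in cKO libraries, most of it from Pmp22, which stromal cells also express. The defining Schwann gene Sox10 was listed at no more than 0.0524 FPKM.

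Neuronal markers, relevant to Vgf, were near 0 apart from Tubb3 and Uchl1, which Sertoli or germ cells also express. Of 12 measured genes 2 were tested, both higher and 0 called, with Tubb3 at 55.4 ± 22.0 FPKM in the wild-type set and 102 ± 43.3 FPKM across the cKO set (SD, n = 3 each, limma adjusted p = 0.755). The other 10, among them the synaptic gene Snap25, were listed at no more than 0.644 FPKM in any library. Nefm, a neurofilament gene named after its values were seen, was at 0.138, 0.106 and 0.136 FPKM in the wild-type set and at 0.357, 0.639 and 0.413 FPKM in cKO libraries, below the filter.

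Levels of cell type marker transcripts differed between libraries. Sox9, a defining Sertoli gene, was present in all, at 5.97, 5.10 and 20.2 FPKM for the wild-type set and 22.3, 24.1 and 35.6 FPKM for the cKO set. Of 16 tested Sertoli markers, 10 had log2 differences above 0 and 6 below. Among the latter was Inhbb, at 65.7, 85.4 and 6.04 FPKM for the wild-type set and 18.1, 15.4 and 32.6 FPKM for the cKO set. Lyz2, a macrophage gene, was at 648, 577 and 66.5 FPKM against 69.2, 37.1 and 69.4 FPKM. The mean log2(FPKM + 1) over 18 listed Sertoli genes stood at 3.25, 3.28 and 3.91 for wild-type cultures against 3.88, 3.69 and 4.23 for cKO cultures, and that of 14 macrophage markers was 5.38, 5.15 and 3.93 against 4.02, 3.27 and 3.69. Summed macrophage markers ran from 311 to 1410 FPKM in the wild-type set and from 204 to 339 FPKM in cKO libraries, and summed Sertoli markers from 1230 to 1470 and from 1080 to 1540 FPKM. Vim, which stromal cells also express, made up much of the Sertoli sum, at 1120, 847 and 580 FPKM against 570, 457 and 638 FPKM. With Vim left out after its values were seen, the other 17 genes summed to 350, 381 and 837 FPKM for wild-type cultures. For cKO cultures they summed to 757, 627 and 906 FPKM. Clu, among these 17, was at 107, 79.2 and 476 FPKM against 450, 335 and 452 FPKM. The mean over 12 endothelial markers was 0.95, 0.84 and 2.06 against 2.60, 1.65 and 1.96. No marker of these 3 lists was at 0 in all libraries. In each of the 3 lists the mean in wild-type replicate 3 lay inside the range of the cKO means. In that replicate all 5 genes were below every cKO library, as their choice required, and so was Sox9. All cKO values lay above all wild-type values for 2 of 16 tested Sertoli, 1 of 9 endothelial and 0 of 13 macrophage markers. They lay below for 0, 0 and 2 of these. Among all tested genes 6.28% lay above and 5.01% below. The part of culture makeup in the differences of the 5 genes was not tested.

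**Figure D5:**
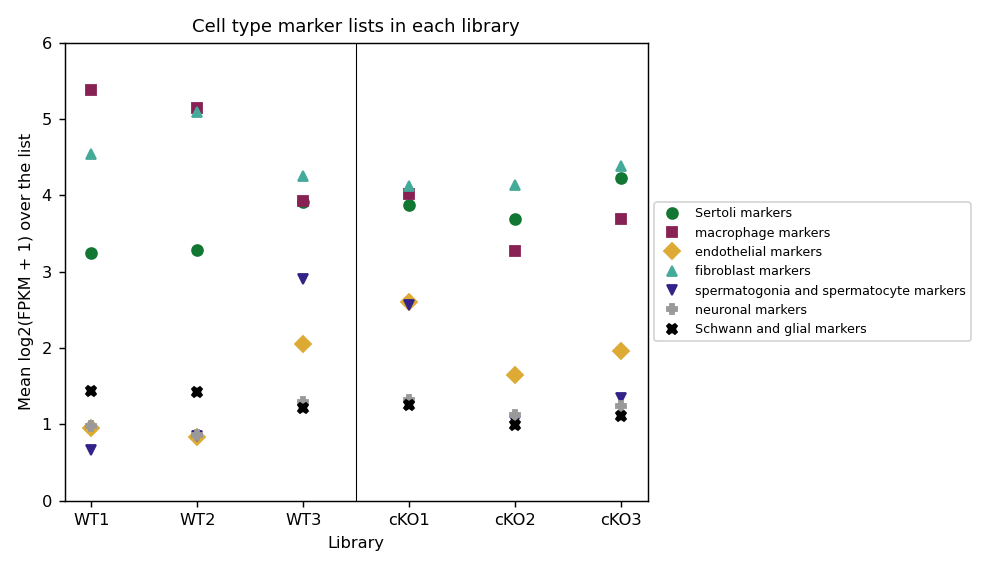
Mean log2(FPKM + 1) over each marker list (y axis) in each library (x axis), for 7 lists shown by colour and symbol. Wild-type replicates 1 and 2 have the highest macrophage and lowest Sertoli and endothelial means, and wild-type replicate 3 sits among the cKO libraries for these 3 lists.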

How the data were processed

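RNA from 6 cultures was analysed, 3 per genotype, grouped by the sample labels. The submitters' processing notes name FastQC and HISAT2 2.1.0 with genome build mm8. The sources used here do not give the counter, annotation or strand setting. The unit of the values that the authors deposited, 1 per gene and library, is unstated and was taken as FPKM. The reason is that a value multiplied by its gene's exonic length (GENCODE M21) gave whole fragments: of single-exon genes with at most 10 fragments, 99.1% to 99.5% were whole within 0.02 times their fragment number. This gave the fragments per library and gene. For Tmem200b a scan found the length at which all 6 were whole within 0.02 fragments. M21 belongs to GRCm38, so the named build is in doubt, and coordinates are given only for RefSeq promoter windows. Symbols were matched for 28932 of 29275 identifiers.

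Values were transformed to log2(FPKM + 1), which understates changes of low genes. The 12284 genes reaching 1 FPKM in 3 or more libraries were fitted with limma 3.58.1 in R 4.3.3 (trend, genotype alone, two-sided, Benjamini-Hochberg adjusted over all tested genes, threshold 0.05), and the fit was tested on simulated data. Arhgef15 was fitted without the filter. Python 3.11.15 and SciPy 1.17.1 were used otherwise. Over all tested genes the median log2 difference was 0.08, which became 0.02 under median-ratio scaling and 0 under quantile normalization.

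The 5 genes, 20 gene lists and tests were chosen with earlier results of these data known. Named genes were the 5, Arhgef15, paralogs with a mean of at least 1 FPKM, up to 4 genes with the smallest p from each other list, the 3 nearest profiles to each gene and the next 3 genes in p, and others are named by level or as background. Some genes that this rule names are not reported here. Tried besides were a replicate block, each library left out, median-ratio or quantile scaling, pseudocounts of 0.1 or 5, no filter and a filter of 5 FPKM. A loess correction for GC content and length was added after seeing the data.

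For the marker lists not described above, median log2 differences were -0.33 for fibroblast, -0.39 for myoid, -0.17 for Leydig and -0.40 for spermatid markers.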

Additional observations from a re-analysis of the deposited data

How the results depend on the processing

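All 5 genes stayed separated under median-ratio scaling, quantile normalization and the added GC and length correction, and under leaving out any library, which cannot end a separation. Their log2 differences stayed positive in every setting run, of which Pou3f1 did not pass the filter of 5 FPKM. In separated genes only median-ratio scaling, quantile normalization and the added correction could have changed that sign. With a library left out the differences ran from 2.36 to 2.92 for Shisa8, 2.06 to 2.61 for Pou3f1, 1.53 to 1.95 for Tmem200b, 1.88 to 2.67 for Vgf and 1.06 to 1.34 for Pim1. The pseudocount set the scale of the low genes: with 0.1 and 5 the difference was 3.26 and 1.59 for Shisa8, 3.44 and 1.04 for Pou3f1, 1.96 and 1.14 for Tmem200b and 2.51 and 1.52 for Vgf. The count of genes called, 2 in the main analysis, was 0 without the filter on low values, and ran from 0 to 478 with a library left out, with 478 when wild-type replicate 3 was out, 4 when wild-type replicate 1 was out and 0 for each other library. The count among the listed genes ran from 0 to 7, with 7 when wild-type replicate 3 was out and 0 in every other setting run. The causes were not tested.

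Replicate numbers did not pair the samples: the correlations of same-numbered deviations were 0.14, 0.03 and -0.21, and not every sample correlated best with its own number. With the replicate block, 0 genes were called.

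Among the 35 listed genes that the naming rule takes, the direction of 4, none called, turned in 6 settings that left out a library. Over the left-out libraries Shisa4 ran from -0.08 (wild-type replicate 3 out) to 0.46, Pou6f1 from -0.18 (cKO replicate 1 out) to 0.42, with -0.12 for wild-type replicate 2 out, Cnih2 from -0.0029 (wild-type replicate 2 out) to 0.35, and Cacng7 from -0.38 to 0.07, its highest value with wild-type replicate 1 or cKO replicate 2 out. Arhgef15 was not called in any setting run, at 0.06 to 1.05.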
